A study of Mus musculus with 30 samples.

Results

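Fresh bone marrow was compared with healthy spleen as a source of CD11b+ myeloid cells in BALB/c mice, with 3 arrays from each organ. The 6 arrays were chosen by their titles from the 30 of the series, which hold 10 groups of 3. The marrow cells were taken ex vivo and the spleens came from healthy mice, so both groups were untreated and without tumor, and both were of the same strain. CD11b, the integrin alpha M chain encoded by Itgam, is carried by neutrophils, monocytes, many macrophages and some dendritic and natural killer (NK) cells, and the cells were enriched with magnetic beads rather than sorted to one type. The labels give no age, sex or purity of the enriched cells, and they do not say whether the 3 arrays of a group came from separate mice or from pools. The p-values then rest on the spread between arrays of a group, pooled over all 10 groups, and this spread may be technical.

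The other 8 groups of CD11b+ cells were used here to estimate the spread and for context. They included healthy C57BL/6 spleen and the spleen and tumor of BALB/c mice carrying C26-GM. Tumors were also taken from BALB/c mice (4T1) and from C57BL/6 mice (EL4 and MCA203), so the tumor groups differ in strain as well as in tumor. The remaining groups were BALB/c marrow kept for 4 days in culture, with GM-CSF plus IL-6 or with GM-CSF plus G-CSF. The C26-GM colon carcinoma releases GM-CSF. The study used healthy spleen as the reference for cells from tumor-bearing mice and fresh marrow as the reference for the cultured cells. The comparison made here therefore sets the study's references side by side.

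Bone marrow is the organ in which neutrophils and monocytes are made. A granulocyte precursor divides while it fills its primary granules with myeloperoxidase and serine proteases, then makes the secondary and tertiary granule proteins, stops dividing and is held in the marrow through the chemokine CXCL12 and its receptor CXCR4 until release. The spleen holds mature neutrophils and monocytes from the blood beside resident cells, among them the red pulp macrophages, which remove old red blood cells and recycle their iron, the macrophages of the marginal zone, dendritic cells and a large lymphoid compartment.

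Values are log2 levels after robust multi-array averaging (RMA), 1 probe set per gene, so a difference of 1 is 2-fold. Over all genes, arrays of the same organ correlated at 0.993 to 0.995 (marrow) and 0.995 to 0.996 (spleen), and arrays of different organs at 0.933 to 0.941. No array of the 6 stood apart. The 3′ minus 5′ signal of the actin control, a measure of RNA integrity, was 0.22 to 0.43 in marrow and 0.18 to 0.25 in spleen. Xist, expressed in female cells, was at 10.64 to 11.02 on all 6 arrays. Itgam itself was 10.65, 10.85 and 10.63 in marrow and 9.98, 10.01 and 9.81 in spleen, without overlap. Its difference of 0.78 ± 0.40 (SE) did not pass the test (adjusted p = 0.164). That SE is pooled over all 10 groups, whereas the SD of Itgam was 0.12 in marrow and 0.11 in spleen. Its partner chain Itgb2 was 12.90, 12.81 and 12.82 in marrow and 12.58, 12.66 and 12.70 in spleen, with a difference of 0.20 ± 0.18 (SE) (adjusted p = 0.461). Lyz2, lysozyme of myeloid cells, lay between 13.58 and 13.97 on every array. The pan-leukocyte gene Ptprc (CD45) was 12.31, 12.33 and 12.45 in marrow and 12.98, 13.17 and 13.06 in spleen, a difference of -0.71 ± 0.11 (SE) that stayed under the 2-fold minimum. The myeloid markers were thus at a high level in both organs, while markers of other cell types were also detected and are given with the results below.

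A gene was called when its adjusted p was below 0.05 and its levels differed at least 2-fold. Of 18194 genes, 2411 were called, 13.3% of those tested. In marrow 1048 were higher (5.76% of all genes) and 1363 were lower (7.49%), and the median difference of all genes was 0.09. These percentages are the background for each count of called list members below, since lists whose members pass at about that rate do not stand out. Separation of the arrays was far more common than a call. The marrow arrays lay above the spleen arrays without overlap in 5751 of the 18194 genes, and below them in 4716. The 5 largest rises in marrow were those of Mpo, Ctsg, Adipoq, Elane and Prtn3, and the 5 largest falls were those of Adamdec1, H2-Ob, St8sia6, Clec4n and Mmp12, among genes that have an established name and whose groups did not overlap.

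**Figure D1:**
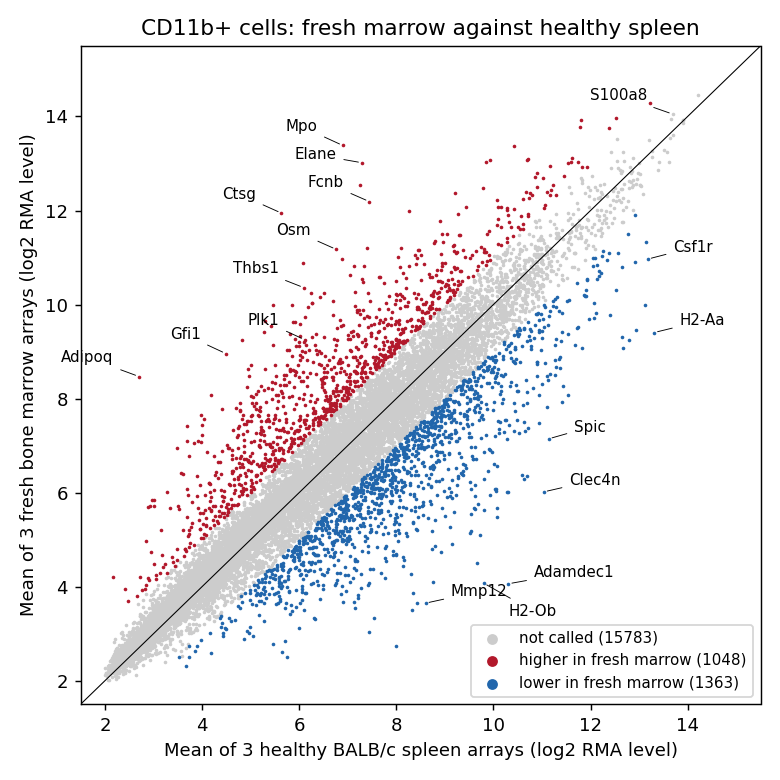
Mean log2 RMA level of each gene in 3 healthy BALB/c spleen arrays (horizontal axis) and 3 fresh marrow arrays (vertical axis), with the line of equal levels; colours mark 1048 genes called higher in marrow, 1363 called lower and 15783 not called. Mpo, Ctsg and Elane lie far above the line and H2-Ob, Adamdec1 and Mmp12 far below it, while S100a8 lies close to it.

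**Figure D2:**
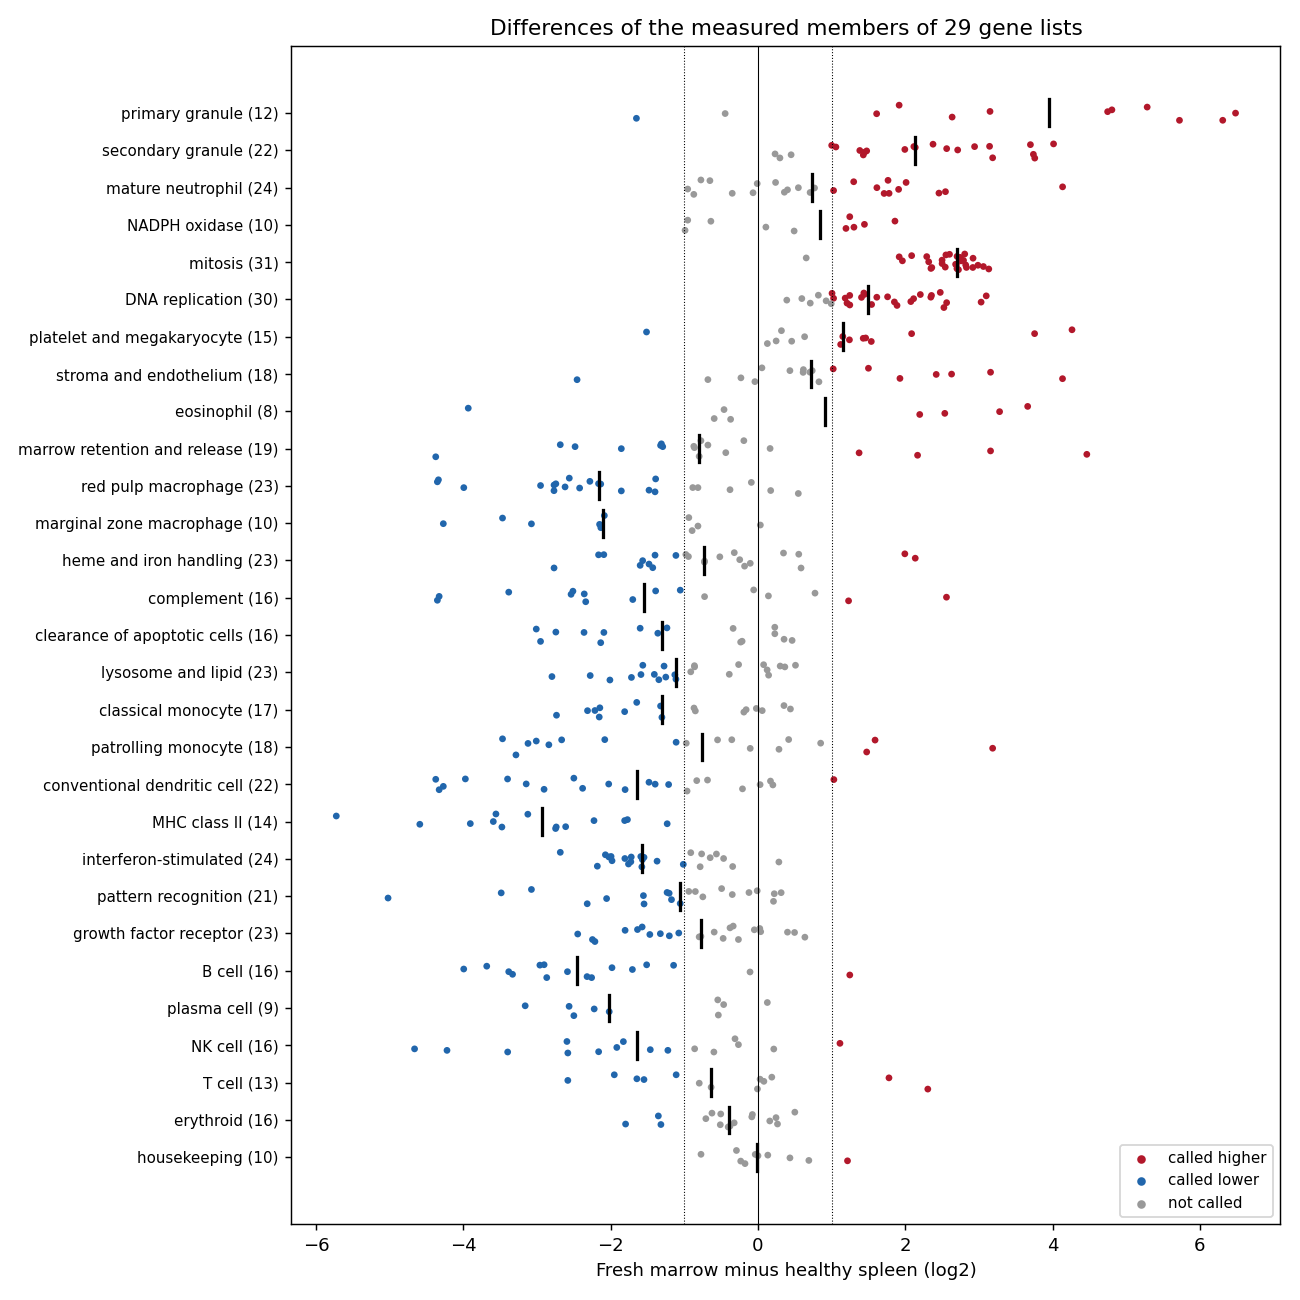
Difference between fresh marrow and healthy spleen (log2) for each measured member of 29 gene lists, with the number measured in brackets, the median as a bar and the 2-fold limits as dotted lines. The mitosis and secondary granule lists lie to the right of 0, and the MHC class II and B cell lists lie almost wholly to the left.

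The genes of the primary (azurophil) granules were far higher in marrow. Of 12 measured members 10 were called higher and 1 lower, with a median difference of 3.95, beside 5.76% of all genes called higher. Mpo, which encodes myeloperoxidase, the enzyme that makes hypochlorous acid, was 13.39, 13.40 and 13.35 in marrow and 6.93, 6.50 and 7.26 in spleen. Its difference was 6.48 ± 0.39 (SE), or 89.5-fold (adjusted p = 1.33e-12), and the lowest marrow array lay more than 6 log2 units above the highest spleen array. Ctsg, the gene of the serine protease cathepsin G, was 11.96, 12.11 and 11.76 in marrow and 5.70, 5.22 and 5.98 in spleen, a difference of 6.31 ± 0.37 (SE) (adjusted p = 8.17e-13). Elane, neutrophil elastase, was 12.93, 13.30 and 12.82 in marrow and 7.31, 7.07 and 7.49 in spleen and differed by 5.72 ± 0.39 (SE) (adjusted p = 1.08e-11). Prtn3, proteinase 3, was 12.61, 12.64 and 12.36 in marrow and 7.60, 6.79 and 7.37 in spleen and differed by 5.28 ± 0.33 (SE) (adjusted p = 2.11e-12). The marrow arrays of these 4 genes were within 0.5 of each other and none approached a spleen array. Ms4a3, a membrane protein of granulocyte and monocyte progenitors, was higher by 4.81, and Fcnb, a ficolin stored in granules, by 4.75. Serpinb1a, an inhibitor of these proteases, was higher by 3.15. The exception was Ctsc, whose product cathepsin C activates the granule proteases: it was 9.85, 10.79 and 9.99 in marrow and 12.01, 11.77 and 11.80 in spleen, a difference of -1.65 ± 0.18 (SE) (adjusted p = 3.04e-08). Calr, a chaperone needed for myeloperoxidase folding, was not called.

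The stretch of 250 bases before the start of the 4 leading granule genes is shown because these genes moved together and share a letter pattern there. Capitals mark GAGGAAG, the purine-rich core bound by ETS family factors such as PU.1, read on either strand. The sequences are RefSeq's for GRCm38.p6, which is the genome of C57BL/6J, whereas the arrays are of BALB/c mice.
Mpo, chr11:87793534-87793783, plus strand: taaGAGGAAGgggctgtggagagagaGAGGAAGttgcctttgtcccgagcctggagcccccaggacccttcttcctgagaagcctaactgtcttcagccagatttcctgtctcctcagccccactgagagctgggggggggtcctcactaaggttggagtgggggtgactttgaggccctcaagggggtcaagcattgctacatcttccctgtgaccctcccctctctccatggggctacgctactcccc
Elane, chr10:79886062-79886311, plus strand: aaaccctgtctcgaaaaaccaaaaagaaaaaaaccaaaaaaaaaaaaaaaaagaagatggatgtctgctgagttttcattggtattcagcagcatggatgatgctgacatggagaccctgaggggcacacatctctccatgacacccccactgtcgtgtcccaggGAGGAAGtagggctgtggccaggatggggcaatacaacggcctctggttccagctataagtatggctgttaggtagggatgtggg
Prtn3, chr10:79879417-79879666, plus strand: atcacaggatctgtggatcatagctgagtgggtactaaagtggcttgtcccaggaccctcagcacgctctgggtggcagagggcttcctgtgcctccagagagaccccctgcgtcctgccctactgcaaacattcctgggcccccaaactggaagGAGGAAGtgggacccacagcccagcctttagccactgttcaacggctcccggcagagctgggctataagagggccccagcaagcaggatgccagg
Ctsg, chr14:56102575-56102824, minus strand: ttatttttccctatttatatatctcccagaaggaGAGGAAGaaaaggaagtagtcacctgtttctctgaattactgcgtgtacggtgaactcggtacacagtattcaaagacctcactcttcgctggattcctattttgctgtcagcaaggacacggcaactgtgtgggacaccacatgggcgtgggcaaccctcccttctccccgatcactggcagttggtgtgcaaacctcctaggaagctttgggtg
Each holds the letters at least once, Mpo at 247 and 224 bases before its start, Ctsg at 216, Prtn3 at 95 and Elane at 85. Over the primary granule list 6 of 11 promoters in the table held them, against 10.4% of all 27025 promoters of the same length, and 5 of 18 of the secondary granule list. A match is a description of letters, not a bound site. Elane and Prtn3 are neighbours on chromosome 10.

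Secondary and tertiary granule genes, made later in neutrophil development, were also higher in marrow. Of 22 measured members 19 were called higher and none lower, and the median was 2.13. In all 22 the marrow arrays lay above the spleen arrays without overlap, as they did in 5751 of all 18194 genes. Olfm4, olfactomedin 4 of a subset of specific granules, was 11.97, 12.08 and 11.94 in marrow and 8.04, 8.27 and 8.46 in spleen, a difference of 3.74 ± 0.43 (SE) (adjusted p = 1.17e-07). Itgb2l, a beta integrin chain close to Itgb2, differed by 4.01, Orm1 (an acute phase protein) by 3.76, Abca13 (a lipid transporter) by 3.70, Pglyrp1 (peptidoglycan recognition protein 1) by 3.19 and Cd177, a neutrophil surface protein, by 3.14. The best known genes of this group were far above the array median in both organs. Ltf, lactoferrin, was 13.90, 13.96 and 13.93 in marrow and 11.74, 11.67 and 11.98 in spleen, a difference of 2.14 ± 0.49 (SE) (adjusted p = 0.00127). Camp, cathelicidin, was 13.98, 13.94 and 13.97 in marrow and 12.52, 12.45 and 12.63 in spleen, a difference of 1.43 ± 0.31 (SE) (adjusted p = 7.55e-04). Lcn2, the iron-siderophore binding lipocalin, was higher by 1.99. Ngp, neutrophilic granule protein, was 14.28, 14.30 and 14.28 in marrow and 13.26, 13.06 and 13.36 in spleen. It sat just past the threshold with 1.06 ± 0.38 (SE) (adjusted p = 0.0366). It was no longer called when any 1 of the 6 arrays was left out, with differences of 0.98 to 1.12. Its SE is pooled over all groups, whereas its SD was 0.01 in marrow and 0.15 in spleen.

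Genes of mature neutrophils were split. Of 24 measured members 11 were called higher in marrow and none lower, with a median of 0.74 (1 was lower without the third marrow array or when the arrays were centred on housekeeping genes). The calgranulins were close between the organs. S100a8, a calgranulin that makes up much of the neutrophil cytosol, was 14.06, 14.06 and 14.03 in marrow and 13.69, 13.71 and 13.67 in spleen, a difference of 0.36 ± 0.14 (SE) (adjusted p = 0.0497), and its partner S100a9 was 14.39, 14.51 and 14.47 in marrow and 14.21, 14.25 and 14.20 in spleen, a difference of 0.24 ± 0.15 (SE) (adjusted p = 0.254). Both lay close to the highest value of any gene on these arrays, 14.2 to 14.5. In marrow Ltf, Camp, Lcn2 and Ngp, given above, were within 1 log2 unit of it as well. Whether the scale is compressed there, which bears on the size of all of these differences, was not tested. Members that were higher in marrow included Stfa3, a stefin that inhibits cysteine proteases (4.14), Padi4, the enzyme that citrullinates histones in extracellular traps (2.55), Trem1, an activating receptor (2.46), Cxcl2, a neutrophil chemoattractant (2.01), and Mmp9, gelatinase B. Mmp9 was 12.87, 12.68 and 12.85 in marrow and 11.11, 10.98 and 10.59 in spleen, with no overlap (adjusted p = 8.00e-04). Receptors on the list were not all alike: Fpr2, a formyl peptide receptor, was higher by 1.77, while Csf3r and Cxcr2 were not called. Csf3r, the G-CSF receptor, was 11.31, 11.41 and 11.62 in marrow and 12.42, 12.29 and 11.96 in spleen, a difference of -0.77 ± 0.24 (SE) that lay under the 2-fold minimum, and Cxcr2, the chemokine receptor that draws neutrophils out of marrow, was 9.30, 9.50 and 9.42 in marrow and 10.71, 10.10 and 10.03 in spleen, a difference of -0.87 ± 0.36 (SE) (adjusted p = 0.0739). Here the spleen arrays were the higher ones, without overlap.

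Most measured subunits of the phagocyte NADPH oxidase, the complex that produces superoxide, were higher in marrow. The list also holds enzymes that remove superoxide and peroxide, and of its 10 measured members 5 were called higher and none lower, or 2 lower without the third marrow array or with housekeeping centring. Of the 5, 4 are subunits and the other is Rab27a, a GTPase of vesicle traffic (1.20). Cybb, the catalytic chain gp91phox, was 13.04 ± 0.09 in marrow and 11.59 ± 0.09 in spleen (mean ± SD, n = 3), a difference of 1.45 ± 0.19 (SE) (adjusted p = 1.14e-06). Of the cytosolic subunits, Ncf1 (p47phox) differed by 1.86 and Ncf4 (p40phox) by 1.25, and the GTPase Rac2 differed by 1.30. Cyba, the partner chain of Cybb, was not called.

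**Figure D3:**
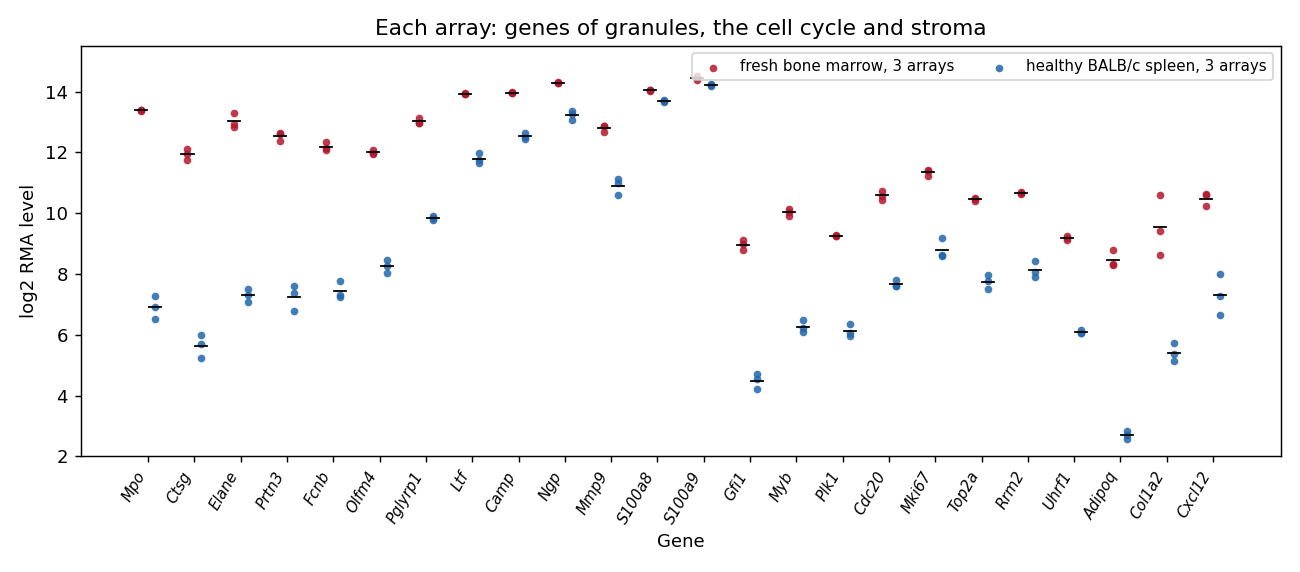
log2 RMA level on each of the 6 arrays (dots, with the group mean as a bar) for 24 genes of granules, the cell cycle and stroma, marrow in red and spleen in blue. In each gene the marrow dots lie above the spleen dots, by the widest margin in Mpo and Ctsg and by the narrowest in S100a8 and S100a9.

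Cell cycle genes were higher in marrow almost as a block. Of 31 measured genes of mitosis 30 were called higher and none lower, with a median of 2.70, and of 30 measured genes of DNA replication 24 were called higher and none lower, with a median of 1.49. In each of them the marrow arrays lay above the spleen arrays without overlap, as they did in 5751 of all 18194 genes. Plk1, the polo-like kinase that drives entry into mitosis, was 9.24, 9.28 and 9.24 in marrow and 6.34, 6.06 and 5.95 in spleen, a difference of 3.13 ± 0.28 (SE) (adjusted p = 1.03e-09). Mki67, the proliferation antigen Ki-67, was 11.42, 11.22 and 11.39 in marrow and 9.19, 8.59 and 8.62 in spleen, a difference of 2.54 ± 0.25 (SE) (adjusted p = 5.41e-09). Cdc20, activator of the anaphase-promoting complex, differed by 2.92, Top2a, the topoisomerase that untangles chromosomes, by 2.70, Kif2c, a microtubule-depolymerising kinesin, by 3.06, Ttk, a spindle checkpoint kinase, by 2.99, and Ncapd2, a condensin subunit, by 2.92. In the brightest probe sets the differences of the mitosis genes lay close together, from 1.92 in Mad2l1 to 3.13 in Plk1 among the called ones. Other probe sets of some of these genes differed by less, for example by 0.46 in Kif2c and 0.58 in Top2a. The member not called, Kif23, a kinesin of cytokinesis, differed by 0.66 in its brightest probe set, by 1.14 in another and by -0.14 in the last.

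Genes of DNA replication varied more. Uhrf1, which recruits the maintenance DNA methyltransferase, was 9.26, 9.13 and 9.19 in marrow and 6.16, 6.07 and 6.05 in spleen, a difference of 3.10 ± 0.27 (SE) (adjusted p = 6.31e-10). E2f8, a repressor of the late cell cycle, differed by 3.03, Cdc45, part of the replicative helicase, by 2.56, Rrm2, the regulated subunit of ribonucleotide reductase, by 2.53 and Ccne2, cyclin E2, by 2.48. The helicase subunits Mcm2 to Mcm7 were each called higher, from 1.03 in Mcm4 to 2.08 in Mcm6. Pcna, the sliding clamp, was 11.39, 11.42 and 11.34 in marrow and 11.06, 10.87 and 11.05 in spleen and was not called, with a difference of 0.39 ± 0.16 (SE) (adjusted p = 0.0678). The spleen levels of these genes were not all at the bottom of the scale: 2 of 31 mitosis genes and 2 of 30 replication genes had a spleen mean under the array median of 4.93.

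Promoters of 4 of the mitosis genes are shown, 150 bases before the start, because the list shares CCAAT letters there. Capitals mark CCAAT or, where it is on the other strand, ATTGG.
Cdk1, chr10:69352913-69353062, minus strand: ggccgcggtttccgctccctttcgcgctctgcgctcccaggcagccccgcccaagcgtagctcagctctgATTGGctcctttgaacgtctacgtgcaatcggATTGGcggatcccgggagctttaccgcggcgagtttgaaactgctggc
Ccnb2, chr9:70421555-70421704, minus strand: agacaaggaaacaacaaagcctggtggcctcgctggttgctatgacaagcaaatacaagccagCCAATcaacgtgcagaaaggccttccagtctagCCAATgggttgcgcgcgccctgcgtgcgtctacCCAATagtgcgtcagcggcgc
Cdc20, chr4:118437344-118437493, minus strand: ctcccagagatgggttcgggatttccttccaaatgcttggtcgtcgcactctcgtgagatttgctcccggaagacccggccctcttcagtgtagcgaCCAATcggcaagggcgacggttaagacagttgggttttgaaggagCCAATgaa
Ttk, chr9:83834539-83834688, plus strand: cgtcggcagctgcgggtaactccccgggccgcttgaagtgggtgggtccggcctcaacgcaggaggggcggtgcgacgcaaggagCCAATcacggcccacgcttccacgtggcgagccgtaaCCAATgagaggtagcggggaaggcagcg
Ccnb2, the gene of cyclin B2, has 3 such matches, at 87, 54 and 21 bases before its start. Cdk1, its kinase partner, has them at 80 and 48, Cdc20 at 53 and 8, and Ttk at 65 and 28. In the 250 bases before the start, CCAAT was in 22 of 26 mitosis promoters in the table and 15 of 25 replication promoters, against 34.5% of all promoters. TTTGAA, the letters of the cell cycle genes homology region, was in 11 of 26 mitosis promoters and 4 of 25 replication promoters, against 16.3% of all. Kif2c, with a difference as large as these genes, has no CCAAT in the 150 bases read.

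Transcription factors differed in both directions. Gfi1, a repressor required for neutrophil formation, was 9.12, 8.78 and 8.97 in marrow and 4.22, 4.56 and 4.70 in spleen, a difference of 4.46 ± 0.47 (SE) (adjusted p = 2.07e-08). Myb, a factor of haematopoietic progenitors, was 10.15, 9.89 and 10.04 in marrow and 6.48, 6.08 and 6.21 in spleen, a difference of 3.77 ± 0.40 (SE) (adjusted p = 2.17e-08), and Erg, an ETS factor of stem cells and endothelium, was higher by 3.51. Marrow and spleen did not overlap in any of the 3. The general myeloid factors were closer together. Spi1, which encodes PU.1, differed by 0.77 ± 0.15 (SE) and Cebpb by 0.77 ± 0.17 (SE), both past the adjusted p but short of 2-fold. Cebpa was 9.10, 8.63 and 9.31 in marrow and 8.45, 8.76 and 8.54 in spleen and overlapped between the organs (adjusted p = 0.14). Cebpd, a factor of later granulocyte stages, was higher by 1.13 and Runx1 by 1.06. Of the 38 measured myeloid factors 7 were higher and 14 lower. Those lower in marrow were factors of macrophages, dendritic cells and lymphocytes: Spic (-3.99), Ahr (-3.17), Batf3 (-2.90), Maf (-2.80), Irf4 (-2.50), Pparg (-2.28), Zeb2 (-2.23) and Irf8 (-1.19). Irf8, the factor that turns progenitors towards monocytes, was 8.76, 8.68 and 8.59 in marrow and 9.88, 9.88 and 9.85 in spleen, without overlap.

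Genes of stem and progenitor cells showed no common direction. Of 18 measured members 3, among them Myb and Erg, were higher and 3 lower, with a median of -0.03. Cd34, a surface marker of stem cells, differed by -0.14 and Kit, the stem cell factor receptor, by -0.80, and neither was called. Cdk6 was higher by 1.10, while Flt3 was lower (-1.80) and Cd48 was lower (-2.64). Without the third marrow array 5 members were lower rather than 3. Prom1, the gene of the stem cell marker CD133 that is not on the list, was 10.06, 9.99 and 9.92 in marrow and 5.39, 5.15 and 5.86 in spleen, a difference of 4.52 ± 0.54 (SE) (adjusted p = 1.73e-07).

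Genes that hold myeloid cells in marrow or let them leave went in both directions. Of 19 measured members 4 were higher in marrow and 7 lower, with a median of -0.80. The ligand Cxcl12 was 10.48 ± 0.22 in marrow and 7.32 ± 0.67 in spleen (mean ± SD, n = 3), a difference of 3.16 ± 0.33 (SE) (adjusted p = 2.43e-08). Its receptor Cxcr4 was 11.27, 11.12 and 11.13 in marrow and 9.51, 10.03 and 9.86 in spleen, a difference of 1.37 ± 0.36 (SE) (adjusted p = 0.00418), and the lowest marrow array lay more than 1 log2 unit above the highest spleen array. Ackr3, the scavenging receptor for CXCL12, was lower in marrow (-2.68), and so was Dpp4, the peptidase that inactivates it, at 4.99, 4.93 and 5.50 in marrow and 9.42, 9.52 and 9.60 in spleen, a difference of -4.37 ± 0.28 (SE) (adjusted p = 3.78e-12). S1pr4, a sphingosine phosphate receptor of myeloid cells, was higher by 2.17 and S1pr1, the receptor of lymphocyte egress, was lower (-1.31). The alpha 4 integrin pathway was lower on both sides. Itga4 was 8.89 ± 0.10 in marrow and 11.37 ± 0.08 in spleen (mean ± SD, n = 3), a difference of -2.48 ± 0.22 (SE) (adjusted p = 1.57e-09), and Itgb1 differed by -1.29. Their ligand Vcam1, which in the spleen is also carried by red pulp macrophages, was 10.94, 10.25 and 11.21 in marrow and 12.48, 12.67 and 12.81 in spleen, a difference of -1.85 ± 0.34 (SE) (adjusted p = 1.07e-04). Over all 20 measured integrins and ligands 2 were higher and 9 lower.

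Genes of the resident splenic macrophages were lower in marrow. Of 23 measured red pulp macrophage genes 17 were called lower and none higher, with a median of -2.16, beside 7.49% of all genes called lower. Spic, the factor that specifies red pulp macrophages, was 7.44, 6.95 and 7.04 in marrow and 11.23, 10.99 and 11.19 in spleen, a difference of -3.99 ± 0.21 (SE) or 15.9-fold lower in marrow (adjusted p = 1.27e-13). Hpgd, which degrades prostaglandins, differed by -4.34, C6, a terminal complement component, by -4.35, Cd163, the hemoglobin scavenger receptor, by -2.77, Mrc1, the mannose receptor, by -2.77 and Adgre1, the F4/80 antigen, by -2.56. Adamdec1, a secreted metalloprotease that showed the largest fall of all, was 3.84, 4.49 and 3.86 in marrow and 10.16, 10.36 and 10.41 in spleen, a difference of -6.25 ± 0.34 (SE) (adjusted p = 2.13e-13). Each marrow array was at least 5 log2 units below each spleen array. In such bulk RNA, fewer cells of a type and less RNA per cell cannot be told apart. The levels in marrow were not at the bottom of the scale for most of these genes: none of the 23 had a marrow mean under the array median of 4.93, and the mean level over the list was 7.63 to 8.11 in marrow and 9.87 to 9.91 in spleen.

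The heme and iron genes of these macrophages followed in part. Of 23 measured members 9 were lower in marrow and 2 higher, with a median of -0.73. Hmox1, heme oxygenase 1, was 9.26, 8.99 and 9.41 in marrow and 11.47, 11.26 and 11.43 in spleen, a difference of -2.16 ± 0.31 (SE) (adjusted p = 3.84e-06). Slc40a1, the iron exporter ferroportin, was 11.14, 10.92 and 11.21 in marrow and 12.60, 12.76 and 12.34 in spleen, a difference of -1.48 ± 0.28 (SE) (adjusted p = 1.28e-04). Blvrb, a biliverdin reductase, differed by -2.09. The 2 higher members, Ltf and Lcn2, bind iron in neutrophil granules and are counted above. Marginal zone macrophage genes were lower in 6 of 10, among them Cd209a, a C-type lectin of dendritic cells (-4.27), the scavenger receptor Marco (-3.07), Cd209b, the lectin SIGN-R1 (-2.13), and Cd68, a lysosomal protein of macrophages (-2.15). Siglec1, the sialoadhesin of metallophilic macrophages, was 5.53, 5.66 and 5.75 in marrow and 5.56, 5.56 and 5.72 in spleen, with overlapping arrays.

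Complement and clearance genes were lower in the same direction. Of 16 measured complement genes 10 were lower and 2 higher. C1qa, a chain of the C1q recognition molecule made by macrophages, was 9.78, 9.28 and 10.07 in marrow and 12.04, 11.99 and 12.16 in spleen, a difference of -2.36 ± 0.17 (SE) (adjusted p = 2.72e-11), and C1qb and C1qc differed by -2.54 and -2.51. Cr2, complement receptor 2 of B cells, differed by -3.38. The 2 higher ones were Serping1, the C1 inhibitor (2.56), and C5ar1, the C5a receptor of neutrophils (1.23). Of 16 measured genes for the clearance of apoptotic cells 9 were lower and none higher, led by Cd36 (-3.01), the receptor kinases Mertk (-2.95) and Axl (-2.74), Stab2 (-2.36) and Timd4 (-2.13). Axl was 8.58, 8.01 and 8.58 in marrow and 11.14, 11.11 and 11.15 in spleen, so that its spleen arrays lay within 0.1 of each other. Lysosome and lipid genes were lower in 12 of 23, led by Scd1, a fatty acid desaturase (-2.80), Lgmn, the lysosomal protease legumain (-2.28), and Abca1, a cholesterol exporter (-2.01). Ctsd and Trem2 were not called.

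**Figure D4:**
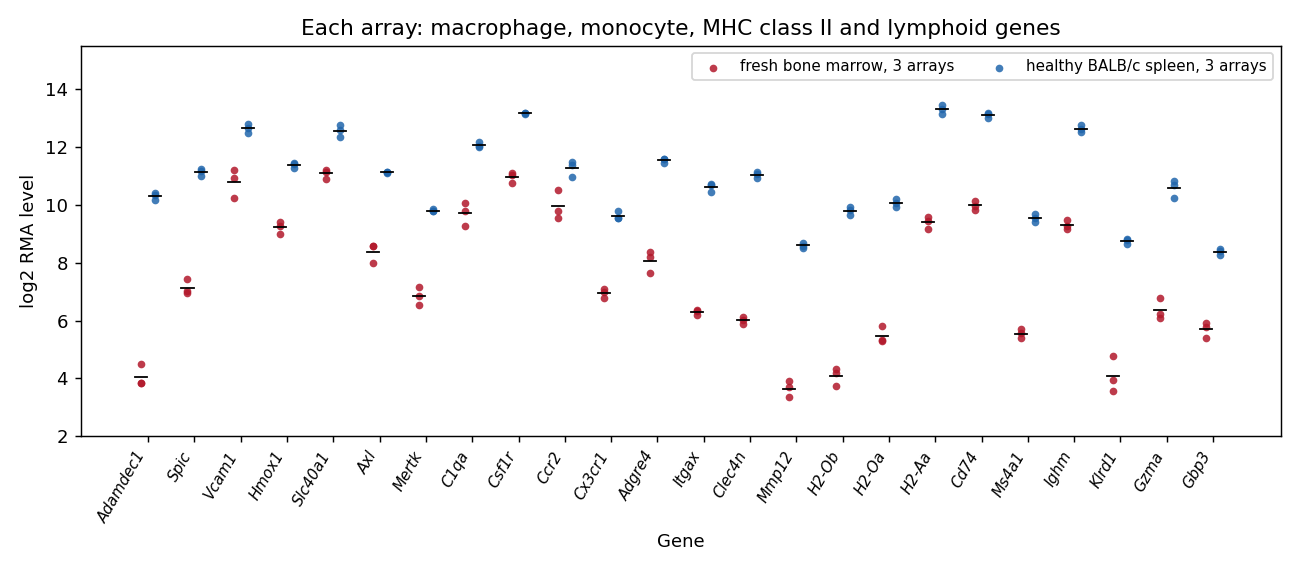
log2 RMA level on each of the 6 arrays (dots, with the group mean as a bar) for 24 genes of macrophages, monocytes, MHC class II and lymphoid cells, marrow in red and spleen in blue. The spleen dots lie above the marrow dots in each gene, by more than 5 log2 units on average in Adamdec1, H2-Ob and Clec4n and by less than 2 in Vcam1, Slc40a1 and Ccr2.

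Many but not all genes of the classical and patrolling monocyte lists were lower in marrow. Of 17 measured classical monocyte genes 9 were lower and none higher, with a median of -1.30. Csf1r, the receptor for macrophage colony-stimulating factor, was 11.09, 10.76 and 11.05 in marrow and 13.16, 13.19 and 13.19 in spleen, a difference of -2.21 ± 0.12 (SE) (adjusted p = 2.13e-13). Ccr2, the receptor by which monocytes leave the marrow, was 9.56, 10.53 and 9.78 in marrow and 11.49, 11.38 and 10.97 in spleen, a difference of -1.32 ± 0.28 (SE) (adjusted p = 4.52e-04), and the second marrow array was the closest to spleen. Ly86 (MD-1) differed by -2.73 and the membrane proteins Ms4a6d and Ms4a6b by -2.31 and -2.15. Another probe set of Ms4a6d differed by 0.09. The 8 classical monocyte genes not called included F13a1 (0.06), Fn1 (-0.16), Vcan (-0.02), Klf4 (0.35) and Cd14 (-0.85). Some lower members stand on other lists too: Csf1r among the growth factor receptors, Fcgr1 among the Fc receptors and Ctss among the MHC class II genes. Of 18 measured patrolling monocyte genes 8 were lower and 3 higher. Cx3cr1, the fractalkine receptor, was 7.00, 6.80 and 7.11 in marrow and 9.79, 9.55 and 9.55 in spleen, a difference of -2.66 ± 0.23 (SE) (adjusted p = 6.71e-10). Adgre4, an adhesion receptor, differed by -3.47, Treml4 by -3.28 and Gngt2 by -3.12. The 3 higher members, Pglyrp1, Ceacam1 and Klf2, are also expressed by other cells, and 2 of them stand on the secondary granule list too. Lower members are shared as well, with Adgre4 on the marginal zone macrophage list and Cd36 on the list for clearance of apoptotic cells.

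No member of the lists of pattern recognition genes and of growth factor and cytokine receptors was called higher in marrow, although such receptors on other lists were, among them Fpr2, given above, and Il18rap, a chain of the IL-18 receptor (1.11). Among 21 measured pattern recognition genes 11 were lower in marrow and none higher. Clec4n, the fungal receptor Dectin-2, was 6.03, 5.89 and 6.13 in marrow and 11.05, 10.92 and 11.14 in spleen, a difference of -5.02 ± 0.19 (SE) or 32.5-fold lower (adjusted p = 1.37e-16). Among Toll-like receptors, Tlr1 differed by -3.48, Tlr7 by -2.32 and Tlr8 by -2.05, while Tlr2 (0.21), Tlr5 (0.32) and Tlr9 (-0.12) were not called. Among 23 measured growth factor and cytokine receptors 10 were lower and none higher, including Il13ra1 (-2.45), Il10ra (-2.25) and Il6st, the shared gp130 chain (-1.63). The chains of the GM-CSF receptor were not called, at 0.64 for Csf2ra and -0.26 for Csf2rb. Of 8 measured Fc receptor genes, Fcgr1 (-2.15) and Fcgrt (-2.01) were lower, and the others were not called.

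Antigen presentation and dendritic cell genes were lower in marrow. All 14 measured genes of MHC class II presentation were called lower, with a median of -2.94, the lowest of the 40 lists. H2-Aa, the alpha chain of the class II molecule I-A, was 9.17, 9.58 and 9.46 in marrow and 13.16, 13.33 and 13.44 in spleen, a difference of -3.90 ± 0.26 (SE) (adjusted p = 7.09e-12). Cd74, the invariant chain, was 9.84, 9.98 and 10.15 in marrow and 13.01, 13.15 and 13.18 in spleen, a difference of -3.12 ± 0.15 (SE) (adjusted p = 6.83e-14). H2-Ob and H2-Oa, the chains of the peptide-loading modulator H2-O, fell furthest. H2-Ob was 4.18, 3.73 and 4.32 in marrow and 9.65, 9.82 and 9.93 in spleen, a difference of -5.72 ± 0.30 (SE) (adjusted p = 1.81e-13), and H2-Oa was 5.29, 5.34 and 5.81 in marrow and 10.06, 9.94 and 10.21 in spleen, a difference of -4.59 ± 0.22 (SE) (adjusted p = 3.89e-14). Ciita, the coactivator that switches the class II genes on, was 4.61, 4.03 and 4.57 in marrow and 6.83, 7.15 and 7.44 in spleen, a difference of -2.74 ± 0.23 (SE) (adjusted p = 3.67e-10), and Rfx5, part of the DNA-binding complex it works with, differed by -1.23. Of 22 measured conventional dendritic cell genes 14 were lower and 1, Mgl2, was higher, a call that was lost without the second marrow, the first spleen or the second spleen array. Itgax (CD11c) was 6.36, 6.18 and 6.34 in marrow and 10.44, 10.73 and 10.71 in spleen, a difference of -4.33 ± 0.23 (SE) (adjusted p = 1.27e-13). The costimulatory ligand Cd86 differed by -3.97, the homing receptor Ccr7 by -3.40, and the dendritic cell factors Batf3 and Zbtb46 by -2.90 and -2.38. Of 11 plasmacytoid dendritic cell genes 5 were lower, and the lineage marker Siglech was not called (0.14).

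Class II promoters share an upstream module whose Y box is read here as GATTGG. The 150 bases before the start are shown for 4 genes of the list, with GATTGG or, on the other strand, CCAATC in capitals.
H2-Ob, chr17:34238755-34238904, plus strand: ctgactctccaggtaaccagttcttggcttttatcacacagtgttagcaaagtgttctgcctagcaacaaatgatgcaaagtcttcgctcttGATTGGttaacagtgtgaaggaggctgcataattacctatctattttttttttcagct
H2-Oa, chr17:34092229-34092378, plus strand: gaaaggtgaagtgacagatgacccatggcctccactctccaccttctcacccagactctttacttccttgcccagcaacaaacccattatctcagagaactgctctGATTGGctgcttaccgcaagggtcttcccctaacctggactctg
H2-Aa, chr17:34287824-34287973, minus strand: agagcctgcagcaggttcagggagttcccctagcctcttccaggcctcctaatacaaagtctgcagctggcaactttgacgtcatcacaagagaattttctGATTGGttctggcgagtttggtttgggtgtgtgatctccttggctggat
H2-Eb1, chr17:34305717-34305866, plus strand: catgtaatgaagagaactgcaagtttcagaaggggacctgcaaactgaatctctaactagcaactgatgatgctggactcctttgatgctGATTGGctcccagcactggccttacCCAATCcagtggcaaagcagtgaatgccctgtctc
The match began 58 bases before the start in H2-Ob, 44 in H2-Oa, 49 in H2-Aa, and 60 and 35 in H2-Eb1, so that each gene had one between 44 and 60 bases. In the 250 bases before the start, 6 of 10 promoters of the list held GATTGG, against 15.1% of all promoters. The letters contain CCAAT on the other strand, and they were also in 16 of 26 promoters of the mitosis list, whose genes moved the opposite way.

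Genes of lymphoid cells were lower in the marrow preparations too. Of 16 measured B cell genes 14 were lower and 1 higher, with a median of -2.45 and a mean level of 6.10 to 6.34 in marrow against 8.38 to 8.49 in spleen. Ms4a1 (CD20) was 5.56, 5.40 and 5.71 in marrow and 9.41, 9.55 and 9.68 in spleen, a difference of -3.99 ± 0.37 (SE) (adjusted p = 1.95e-09), and Fcmr, the IgM receptor, differed by -3.68. Ighm, the IgM heavy chain, was 9.48, 9.29 and 9.16 in marrow and 12.62, 12.52 and 12.78 in spleen in its brightest probe set, a difference of -3.33 ± 0.20 (SE), but -0.82 when its 11 probe sets were averaged. In marrow 4 of the 16 B cell genes had a mean under the array median, and in spleen none did. B cells carry MHC class II, and their part in the class II result was not tested. Plasma cell genes were lower in 5 of 9, with Jchain at -3.16. Of 16 measured NK cell genes 10 were lower and 1 higher, and the list's mean level was 5.01 to 5.24 in marrow and 6.51 to 6.91 in spleen, with 7 of the 16 under the array median in marrow and 2 in spleen. Klrd1 (CD94) was 3.95, 3.56 and 4.77 in marrow and 8.81, 8.66 and 8.79 in spleen, a difference of -4.66 ± 0.30 (SE) (adjusted p = 4.64e-12), and Gzma, granzyme A, differed by -4.22. Of 13 measured T cell genes 5 were lower and 2 higher, with 7 under the array median in marrow and 3 in spleen, and the chains of one receptor complex parted: Cd3d was 11.04, 10.69 and 10.89 in marrow and 8.59, 8.61 and 8.49 in spleen, a difference of 2.31 ± 0.34 (SE) (adjusted p = 6.08e-06), while Cd3g differed by -1.64 and Cd3e was 6.34, 6.60 and 6.50 in marrow and 6.46, 6.38 and 6.35 in spleen. Precursor B cell genes, which the marrow could hold, were at a mean level of 5.16 to 5.34 in marrow and 5.20 to 5.23 in spleen, with 1 of 11 higher, the surrogate light chain gene Vpreb1 (1.15), and 1 lower, Il7r (-1.73). Of the 11, 6 were under the array median in marrow and 4 in spleen. Vpreb1 was under it in both organs, at 4.81 in marrow and 3.66 in spleen.

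Interferon-stimulated genes were lower in marrow as a group. Of 24 measured members 16 were lower and none higher, with a median of -1.57. Gbp3, a guanylate-binding GTPase, was 5.91, 5.80 and 5.40 in marrow and 8.47, 8.42 and 8.26 in spleen, a difference of -2.68 ± 0.30 (SE) (adjusted p = 5.69e-08). Rsad2, the antiviral enzyme viperin, was 8.65, 8.24 and 7.99 in marrow and 10.74, 10.65 and 10.03 in spleen, a difference of -2.18 ± 0.33 (SE) (adjusted p = 8.97e-06), and the third spleen array was the lowest of its group. Gbp2 differed by -2.07, Rtp4 by -2.02 and Ifit3 by -1.99. Oas2, Oas3 and Mx2, antiviral effectors of the same programme, were not called. Promoters of 3 of these genes are shown, with capitals on the core of the interferon response element, GAAA, any 2 bases and GAAA again, or its other strand with TTTC in place of GAAA.
Gbp3, chr3:142559894-142560043, plus strand: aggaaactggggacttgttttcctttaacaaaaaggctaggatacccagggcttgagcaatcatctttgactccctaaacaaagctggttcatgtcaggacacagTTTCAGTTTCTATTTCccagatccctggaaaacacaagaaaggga
Gbp2, chr3:142620513-142620662, plus strand: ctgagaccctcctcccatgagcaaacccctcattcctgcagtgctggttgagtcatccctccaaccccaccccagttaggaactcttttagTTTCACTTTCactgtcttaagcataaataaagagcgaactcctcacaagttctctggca
Ifit1, chr19:34640739-34640888, plus strand: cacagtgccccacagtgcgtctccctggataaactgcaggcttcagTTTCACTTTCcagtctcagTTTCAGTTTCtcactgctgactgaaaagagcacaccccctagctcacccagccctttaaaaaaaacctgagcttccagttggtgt
Gbp3 has 2 overlapping matches, at 45 and 39 bases before its start, Gbp2 has 1 at 59, and Ifit1, an RNA-binding protein gene that was lower by 1.72 on the log2 scale, has 2 at 104 and 85. The letters were in 10 of 19 promoters of the list that the table holds, against 3.04% of all promoters and 0 of 11 of the primary granule list.

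Immediate early genes, which respond within minutes to handling or signals, differed in part. Of 31 measured members 8 were higher in marrow and 3 lower, with a median of 0.34. Fosb, an AP-1 subunit, was 9.80, 9.60 and 9.50 in marrow and 5.98, 5.38 and 6.39 in spleen, a difference of 3.71 ± 0.66 (SE) (adjusted p = 7.25e-05), and Jun was 11.63, 11.42 and 11.40 in marrow and 9.46, 8.87 and 9.59 in spleen, a difference of 2.18 ± 0.38 (SE) (adjusted p = 4.72e-05). Cd69, an early activation antigen, was higher by 1.84 and the chaperone Hspa1a by 1.96, although without the first spleen array Hspa1a was no longer called. Fos, Junb, Egr1 and Nr4a1 were not called, and Rgs1, a regulator of G protein signalling, was lower at 7.59, 7.32 and 7.58 in marrow and 10.45, 10.45 and 11.01 in spleen, a difference of -3.14 ± 0.27 (SE) (adjusted p = 5.32e-10). Without the first marrow array 5 members were lower rather than 3. The part of tissue handling in these differences was not tested.

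Cytokine and chemokine genes showed 5 rises and 10 falls among 29 measured. Osm, oncostatin M, an IL-6 family cytokine, was 11.34, 11.15 and 11.03 in marrow and 6.83, 6.41 and 7.06 in spleen, a difference of 4.41 ± 0.29 (SE) (adjusted p = 7.61e-12). Ccl2, a monocyte chemoattractant, was higher by 2.41 and Ccl3 by 1.25. Il18 was 7.48, 7.14 and 7.83 in marrow and 11.00, 10.86 and 10.98 in spleen, a difference of -3.47 ± 0.25 (SE) (adjusted p = 2.57e-11), and Il1b was 10.92 ± 0.36 in marrow and 12.92 ± 0.09 in spleen (mean ± SD, n = 3), a difference of -2.00 ± 0.26 (SE) (adjusted p = 6.60e-07). Ccl24 (eotaxin 2) differed by -3.47 and Ccl5 by -3.40. Il6, Il10 and Tgfb1 were not called.

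Genes used to describe suppressor activity of myeloid cells were not shifted as a group. Of 20 measured members 4 were higher and 3 lower, with a median of -0.05. Arg1, arginase 1, was 3.74, 3.34 and 3.77 in marrow and 3.90, 4.04 and 3.56 in spleen, and Nos2, the inducible nitric oxide synthase, was 4.41, 4.80 and 4.72 in marrow and 5.07, 4.65 and 4.54 in spleen; both overlapped between the organs, with differences of -0.21 ± 0.35 (SE) and -0.11 ± 0.29 (SE) (adjusted p = 0.713 and 0.827), and their levels were near or below the array median of 4.93. Nt5e, the ectoenzyme CD73 that makes adenosine, was 7.33, 6.92 and 7.02 in marrow and 3.76, 4.00 and 3.99 in spleen, a difference of 3.17 ± 0.34 (SE) (adjusted p = 2.42e-08), whereas Entpd1 (CD39), which acts before it, was lower (-1.42). Cd274 (PD-L1) was 5.30, 4.89 and 5.21 in marrow and 7.99, 8.06 and 8.14 in spleen, a difference of -2.93 ± 0.23 (SE) (adjusted p = 1.90e-10). Another probe set of Nt5e differed by 0.21. Trib1 was higher by 2.19 and Vegfa by 1.54.

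Genes of stromal cells stood out in the marrow arrays, although such cells do not carry CD11b. Of 18 measured stromal and endothelial genes 7 were higher in marrow and 1 lower. Their mean level was 5.89 to 6.44 in marrow and 4.98 to 5.43 in spleen. Of the 18, 5 had a marrow mean and 11 a spleen mean under the array median. Adipoq, the adipocyte hormone adiponectin, which is not on the list, was 8.79, 8.30 and 8.31 in marrow and 2.83, 2.70 and 2.57 in spleen, a difference of 5.77 ± 0.16 (SE) (adjusted p = 3.16e-19). Col1a2, a chain of type I collagen, was 9.42, 10.60 and 8.63 in marrow and 5.73, 5.37 and 5.16 in spleen, a difference of 4.14 ± 0.42 (SE) (adjusted p = 1.22e-08), and Col1a1 differed by 2.63. The second marrow array was the highest for Col1a1, Col1a2, Dcn, Sparc and Lum, and the first was the highest for Adipoq. Dcn, a matrix proteoglycan, differed by 2.42. Pdgfra, Cdh5 and Kdr, of mesenchymal and endothelial cells, were not called, and Pecam1 was lower (-2.45). The high Cxcl12 level given above belongs to this list as well, and the part of stromal cells in it was not tested. Other genes of adipocytes (Fabp4, Cidec and Lpl) and Lepr, the leptin receptor of CXCL12-rich stromal cells, were looked up after Adipoq had been seen. Fabp4 differed by 0.42, Cidec by 0.06 and Lepr by 0.62, none of them called, and Lpl was lower (-1.34). Cidec was low in both organs, at 2.96 in marrow and 2.90 in spleen. Fabp4 and Lpl were at 8.19 and 10.78 in spleen, where Adipoq was low. Whether adipocyte transcripts followed Adipoq therefore cannot be told from these genes.

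Platelet and megakaryocyte genes were higher in 9 of 15 and lower in 1, with a median of 1.15 and a mean level of 7.31 to 7.90 in marrow against 6.35 to 6.48 in spleen. Thbs1, thrombospondin 1, which monocytes also make, was 10.63, 10.08 and 10.37 in marrow and 6.14, 6.14 and 6.01 in spleen, a difference of 4.26 ± 0.39 (SE) (adjusted p = 1.85e-09). Ppbp and Pf4, platelet chemokines, differed by 3.76 and 2.09, Gp5 by 1.54 and Itga2b by 1.46. Of 16 erythroid genes 3 were lower and none higher. One of these, Alas2, the heme synthesis enzyme of red cells, was 8.19, 7.55 and 7.04 in marrow and 9.64, 8.35 and 8.74 in spleen, and without the first spleen array, its highest, 1 of the 16 was lower rather than 3. Of 8 measured eosinophil genes 4 were higher and 1 was lower, with a median of 0.91. The 4 higher ones encode granule proteins, with Epx, eosinophil peroxidase, at 9.20, 8.50 and 9.37 in marrow and 5.41, 5.29 and 6.53 in spleen and a difference of 3.28 ± 0.42 (SE) (adjusted p = 5.38e-07), Rnase2a at a difference of 3.66, Prg3 at 2.20 and Prg2, major basic protein, at 2.54. In contrast Ccr3, the eotaxin receptor of the mature eosinophil, was 5.52, 5.58 and 6.15 in marrow and 9.87, 9.34 and 9.83 in spleen, a difference of -3.93 ± 0.33 (SE) (adjusted p = 3.77e-10), and Siglecf and Il5ra were not called. Among 15 measured basophil and mast cell genes Mcpt8 (2.60) and Hdc (1.03) were higher and Il4 (-1.28) was lower. Of the 15, 8 had a marrow mean and 10 a spleen mean under the array median. Hdc stood close to the 2-fold limit and was not called without marrow array 1 or 3 or spleen array 2, and without marrow array 3, 2 genes of this list were lower rather than 1. Osteoclast genes showed no common direction, with Ctsk, cathepsin K, higher (1.81) and Acp5, the tartrate-resistant phosphatase, lower (-2.08). Of the 10 measured, 1 was lower, or 2 without the second marrow, the first spleen or the second spleen array and 3 with housekeeping centring.

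Levels in the other groups of the series are given for context. On the C26-GM arrays Xist was 5.15 to 6.47, against 10.06 to 11.12 on the arrays of all other groups. The 3′ minus 5′ actin signal was 2.42 on the third C26-GM tumor array and 0.01 to 0.68 on every other array. The part of sex and of RNA integrity in the C26-GM levels was not tested. The comparisons share the fresh marrow and spleen arrays, so the levels are given without a test. The genes counted next were selected by their levels in fresh marrow and BALB/c spleen, which favours extreme ranks of these groups. The shares over all genes were not computed, so the counts only describe the called genes. Of the 1048 genes higher in marrow, fresh marrow had the highest of the 10 group means for 798, a cultured marrow for 85, and C26-GM spleen or tumor for 57. Of the 1363 lower genes, fresh marrow had the lowest of the 10 means for 542, and a healthy spleen of either strain had the highest for 617. Mpo was 13.38 in fresh marrow, 10.40 and 10.27 in the cultures with IL-6 and with G-CSF, 10.62 in C26-GM spleen, 6.90 and 6.74 in healthy BALB/c and C57BL/6 spleen, and 4.72 to 5.20 in the 4 tumors. Adipoq was 8.47 in fresh marrow and between 2.65 and 3.29 in the other 9 groups, including both cultures of marrow cells. H2-Ob was at 9.80 and 9.62 in the healthy spleens and lower in each other group, down to 3.37 in C26-GM tumor. Adamdec1 was between 9.82 and 10.59 in the spleens and in the C26-GM and 4T1 tumors, and between 3.85 and 4.06 in fresh and cultured marrow. The EL4 and MCA203 tumors are not included in these ranges. Clec4n, low in fresh marrow at 6.02, was between 10.44 and 12.81 in the other 9 groups.

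**Figure D5:**
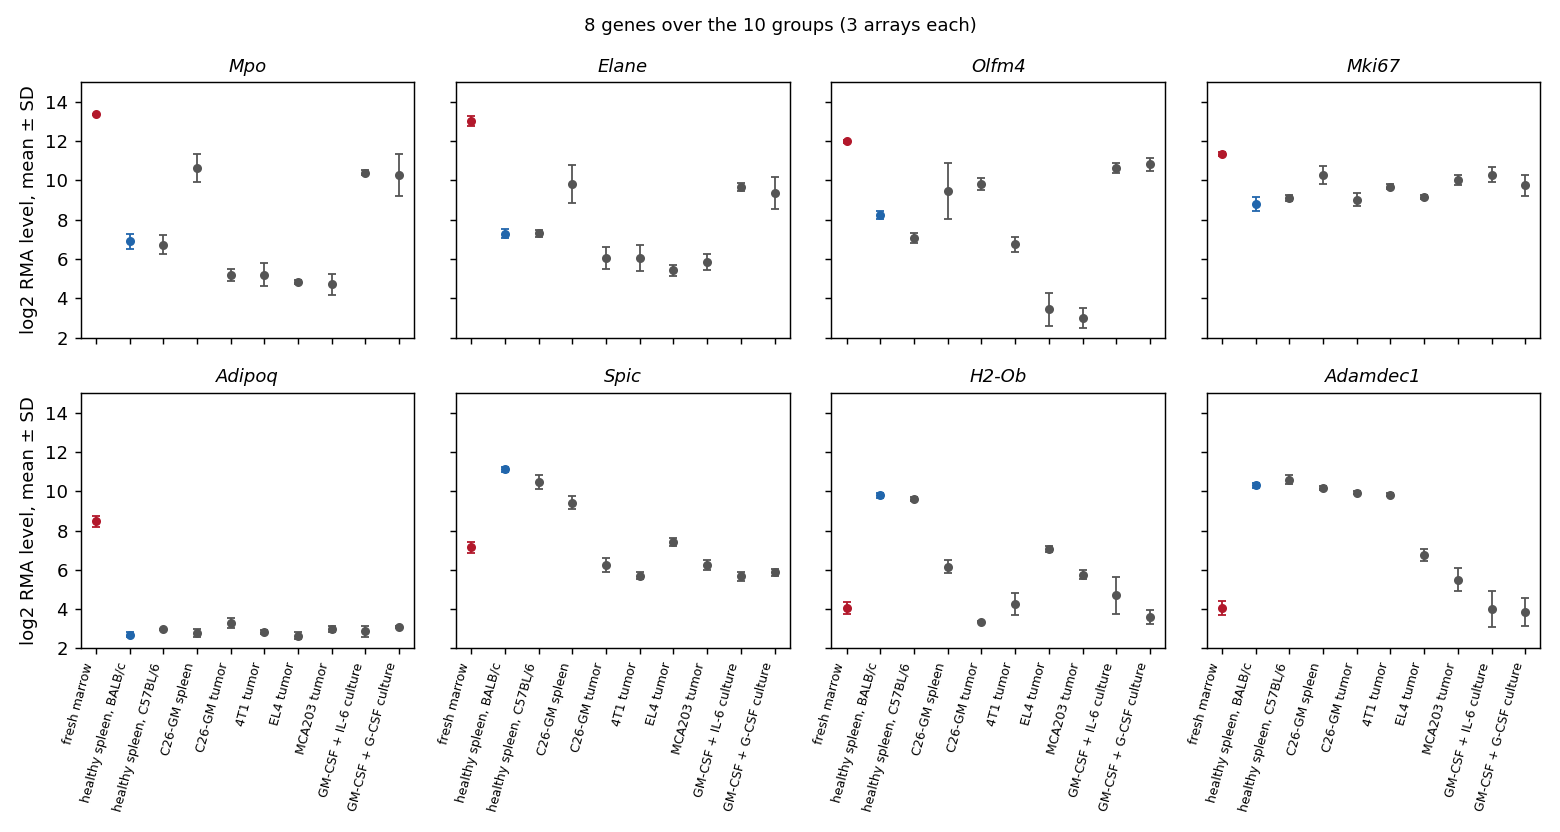
Mean ± SD of the log2 RMA level of 8 genes in the 10 groups of 3 arrays, fresh marrow in red, healthy BALB/c spleen in blue. Mpo, Elane, Olfm4, Mki67 and Adipoq are at their highest in fresh marrow, Adipoq at 8.47 against 3.29 or less elsewhere, and Spic is at its highest in the healthy spleens.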

How the data were processed

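CD11b+ cells were profiled on Affymetrix MOE430 2.0 arrays. The deposited values are log2 RMA expression, per the submitters' processing notes, and no source used here names the RMA version. RMA was run by the authors over all probe sets, so values of an array depend on the other arrays, and it gives no detection call. The depth of an array is not a count, so the number of arrays limits the precision. Neither scan dates nor batches were known.

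Of 45101 probe sets, 34958 carried 1 symbol in GEO's platform annotation, 932 several and 9211 none, and the symbols of 34754 probe sets were found in RefSeq. The probe set with the highest mean over the 30 arrays stood for each of 18194 genes. Of these, 9012 had more than 1 probe set, and the probe sets of a gene did not always agree. Among named genes, another probe set differed by 0.20 in Cxcl12, 0.19 in Itgb2l, 0.07 in Dcn, -0.23 in Axl and -0.36 in Ahr. limma 3.58.1 (R 4.3.3) was fitted to the 10 groups, the contrast was marrow minus spleen, and p-values were adjusted by Benjamini-Hochberg over all genes. SE shares the spread of all groups (20 residual degrees of freedom). The procedure was also run on simulated normal values with planted differences, which checks the code and not the results given here. Figures used matplotlib 3.10.9.

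The text names the 15 largest rises and falls without overlap (no predicted or unnamed transcripts, at most 3 immunoglobulin genes a side), up to 5 called members of each of 40 lists, and a fixed panel. Other genes were named after their values were seen, and lists share members. The comparison, members and lists were chosen with earlier results of these data known. Of the fixed panel, Cebpe had no usable probe set, and 1 other gene is not reported here. Alternatives varied scaling, arrays, weights, filters, probe sets, variance prior, thresholds, pairing and left-out arrays.

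Same-numbered arrays did not deviate together (correlations of their deviations 0.075, -0.118 and -0.007), so they were not treated as pairs. Promoters are RefSeq's on GRCm38.p6, matched by symbol for 11 of the primary granule, 18 of the secondary granule, 26 of the mitosis, 25 of the replication, 10 of the MHC class II and 19 of the interferon genes.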

Additional observations from a re-analysis of the deposited data

How the results depend on the processing

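The 1048 higher and 1363 lower genes stayed within 1.5 times of these counts under each scaling, array set, weighting, filter, probe set rule, variance prior and adjusted p limit tried. Centring on housekeeping genes gave 911 and 1592, quantile normalisation of the 6 arrays 1164 and 1235, and the mean of all probe sets 934 and 1089. The threshold on size moved the counts: without a minimum fold change 2517 were higher and 2746 lower, and at 4-fold 319 and 380. Leaving out 1 array in turn gave 1003 to 1102 higher and 1291 to 1414 lower. With the replicate number as a block, although the numbers do not pair the arrays, 1049 were higher and 1362 lower, and 2410 of the 2411 calls were shared. Of 189 named genes that were called, 184 could be tested under all 16 settings that keep the thresholds and the reference, and 176 of these kept their call. The other 5 (Ackr3, H2-Aa, Hdc, Spic and Vpreb1) were left without a value by a filter on genes or probe sets, and 4 of them kept their call wherever tested. The 9 that lost it were Alas2, Ccr9, Hdc, Hspa1a, Ighm, Il10ra, Itgb3, Ngp and Trim10. Ccr9 changed direction, from -1.15 to 0.15, without the probe sets that can cross-hybridise, since its brightest probe set is one of these. With C57BL/6 healthy spleen as the reference (1 label field of those arrays names BALB/c), chosen after seeing the data, 1189 were higher and 1464 lower and 2006 calls were shared. There 187 of 202 named genes kept their side of the threshold, while Ccl24 went from -3.47 to -0.28, Hspa1a from 1.96 to 0.39, Ms4a6d from -2.31 to -0.72 and Ccr2 from -1.32 to -0.62, and Itgam rose from 0.78 to 1.21. Strain and organ are both changed in that comparison. List counts also moved by over 1.5 times there. Immediate early genes went from 8 to 13 higher and from 3 to 5 lower, and stem and progenitor genes from 3 to 6 lower. Erythroid genes went from 0 to 2 higher and from 3 to 1 lower. The NADPH oxidase, clearance, platelet and precursor B cell counts moved by 1 gene each. Of the 14 MHC class II genes, all lower against BALB/c spleen, 13 were lower and 1 was higher there, so 1 gene changed direction. With the mean of all probe sets, the growth factor receptor list had 1 higher member in place of 0 and the NADPH oxidase list 1 lower in place of 0, the B cell and NK cell lists had none higher in place of 1, the integrin and osteoclast lists 1 higher in place of 2, and precursor B cell genes 2 lower in place of 1. With low genes left out, no precursor B cell gene was higher. Housekeeping centring and a limit of 0.01 on the adjusted p each removed the 1 higher dendritic cell gene, and the basophil list had 1 higher in place of 2 under these, under the mean of all probe sets, without cross-hybridising probe sets and with the C57BL/6 reference. Genes low in an organ have no detection call, so their differences have an uncertain lower end, and the purity of the cells is not known.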

Other observations

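Some gene families, picked after their values were seen and therefore given without a test, held many called members between fresh marrow and healthy spleen. All 6 measured guanylate-binding protein genes (Gbp) were called lower in marrow, with a median difference of -2.34. Of 8 Gimap genes, GTPases of lymphocytes, 6 were lower with a median of -2.02, and of 9 P2ry nucleotide receptor genes 6 were lower with a median of -2.07, among them P2ry12, P2ry13 and P2ry14. All 7 Cdca genes, named for their association with cell division, were higher with a median of 2.55. Of 8 E2f factor genes 4 were higher (E2f1, E2f2, E2f7 and E2f8), with a family median of 0.97. Of 37 kinesin genes (Kif) 9 were higher and the family median was 0.18, so most kinesins were not called. In contrast 0 of 26 Rpl and 0 of 25 Rps ribosomal protein genes were called, with medians of -0.33 and -0.26, and of 49 genes named Psm, most of them proteasome subunits, Psmc3ip was higher and Psmb10, an immunoproteasome subunit, was lower.

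Several genes of secreted or adhesion proteins outside the lists also differed widely. Igfbp4, an insulin-like growth factor binding protein, was 11.44, 10.92 and 11.22 in marrow and 7.86, 7.29 and 7.06 in spleen, a difference of 3.79. Lbp, lipopolysaccharide binding protein, was higher by 3.72, the adhesion molecule Ncam1 by 3.25, the tight junction gene Cldn1 by 3.91 and the matrix gene Tnc by 3.22. Postn, periostin of the matrix, went the other way, at 5.94, 5.95 and 4.99 in marrow and 9.99, 9.78 and 9.65 in spleen, a difference of -4.18. The part of stromal cells in these differences was not tested.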
